A study of Salmo salar with 59 samples.

Results

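The genes described here are the cell cycle genes that the study listed among those differing in activity between pubertal and immature testes of male Atlantic salmon (Salmo salar). They are the 193 array probes, of 42386 in all, that the rows at hand of the study's list of testis genes place in the functional group for the cell cycle. Of 237 such rows, 202 carried distinct probes. From these, 5 that also stand in the study's second list, of genes with an early response to sex steroids, and 4 named cyclin-dependent kinase inhibitor 1B-like were left out. These genes were chosen by the study's own values for pubertal against immature testes, so their values in that comparison are given as a description without a test. The immature testes thus took part in the choice wherever they are compared below, while pituitary and adipose arrays did not.

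A dividing cell passes from growth through DNA replication to mitosis, and cyclins bound to cyclin-dependent kinases (CDKs) drive each step, while CDK inhibitors and checkpoints hold it back until the step before is complete. In mitosis, kinesins build the spindle, the kinetochore ties each chromosome to it, and the anaphase-promoting complex then marks cyclins and other proteins for destruction so that the chromatids part and the cell divides. In the testis, spermatogonia multiply by mitosis and spermatocytes pass through meiosis, which uses much of the same machinery. The Sertoli and Leydig cells around them support the germ cells and make steroid hormones.

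Post-smolts were kept for 18 weeks in tanks of brackish water (20 ppt) at 12.1 °C under continuous light (group A), increasing light (group B) or decreasing light (groups D and E). Group E ate a low-fat diet, and the other groups shared another feed. Testis, pituitary and adipose tissue were each measured on 1 one-colour oligonucleotide array per fish, 59 arrays in all (20, 20 and 19). Pubertal fish were those whose testis was labelled stage III (1 fish, group B), stage IV (3 of group A and 1 of group B) or stage V (1 fish, group B), and immature fish were those labelled stage I (2 of A, 2 of B, 5 of D and 5 of E). All pubertal fish thus came from groups A and B, and stages III and V are 1 fish each by the labels. The study's histology, by the most advanced cell, gives a later stage than the labels for fish 245 and 211, and the labels were followed. By the labels, adipose was measured in the same 6 pubertal fish and in 13 immature ones (2 of A, 2 of B, 5 of D and 4 of E).

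A level below is the log2 signal of a probe relative to the 75th percentile of its array, so that 0 is the signal at that percentile, and log2-ER is the log2 expression ratio, the difference between 2 group means of such levels. The share of spots well above background was 65.6 to 86.6% on pubertal and 66.5 to 84.1% on immature testis arrays, 61.6 to 82.2% and 69.5 to 84.3% on those of pituitary, and 55.4 to 79.4% and 51.1 to 77.6% on those of adipose. The pituitary array of fish 184 stood apart, with a median correlation of 0.753 to the other pituitary arrays, and was left out of the pituitary comparison. Over 200 probes whose levels vary between fish in step across tissues, 19 of 20 pituitary arrays matched the testis array of their own fish best. Adipose arrays were set against the mean of the testis and pituitary arrays of each fish (testis alone for fish 184 and 250). Of these, 14 of 19 matched their own fish best. The library labelled pituitary 250 matched none clearly (best correlation 0.181). Among the adipose arrays, the library labelled 184 matched fish 198, that labelled 250 matched fish 236 and that labelled group B 211 matched fish 221. The library labelled group E 240 matched fish 203, and that labelled group E 211 carries a group B number and matched that group B fish. By the testis labels, fish 198 and 221 were immature and the group B fish 211 was pubertal. The adipose libraries labelled 184, group B 211 and group E 211 thus matched a fish of the other maturity group. The library labelled adipose 202 held some testis markers (ddx4 at 4.22, against at most 0.54 in the other adipose arrays). Its dnd1 (-2.54) and dazl (-3.86) lay within the range of the other adipose arrays. The library labelled adipose 236 held some pituitary markers (prl at 4.12, against at most 0.50). Its pomca and smtlb also lay above the other adipose arrays, but the gonadotropin genes lhb (-5.05) and fshb (-4.69) lay within their range. Labels were kept as given, and the counts over all cell cycle genes in each adipose comparison are given also without the arrays that did not match.

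In the testis, 151 of the 193 genes were higher and 42 lower in pubertal than in immature fish, and all 193 were well above background on enough arrays to be measured. Their log2-ER had a median of 1.85, against 0.29 over all 35618 probes tested, and ran between -3.51 and 4.04. The median was 1.49 with normexp background correction, 1.54 with quantile normalization and 1.34 with the authors' processed values (all probes 0.11, 0.15 and -0.14). The 151 genes that were higher in pubertal testes, called puberty-high below, had a median log2-ER of 2.08 (1.0 to 4.04), and the 42 that were lower, called puberty-low, had a median of -2.01 (-3.51 to -0.37). The 6 pubertal testes did not overlap with the 14 immature ones for 109 genes that were higher, beside 12.9% of all probes, and for 23 that were lower, beside 12.1% of all probes. By more than the study's limit of 0.8 on the log2 scale, 151 were higher and 39 lower, beside 33% and 28.2% of all probes, and 59.1% of all probes passed both that limit and an adjusted p of 0.05. Since the same comparison chose the genes, nothing is read from these counts. In whole tissue, more cells of a type and more RNA per cell cannot be told apart. Summed over 6 germ cell marker genes of 8 listed, the linear level relative to the 75th percentile was 215 to 316 in pubertal testes and 86.7 to 137 in immature testes. That sum is mostly ddx4, with log2 levels of 7.65 to 8.22 in pubertal and 6.34 to 7.02 in immature testes. Of the 6 genes, 5 had a higher mean in pubertal testes and 1 a lower one. The lower one was dnd1, at -2.26 to -1.29 in pubertal and -0.67 to 0.77 in immature testes. The Sertoli cell hormone gene amh stood at 1.31 to 10.6 in pubertal and 13.6 to 114 in immature testes, and the sum of 3 steroidogenic Leydig cell genes of 4 listed at 3.60 to 13.7 and 19.6 to 59.8. The part of these shifts in the cell cycle values was not tested.

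**Figure D1:**
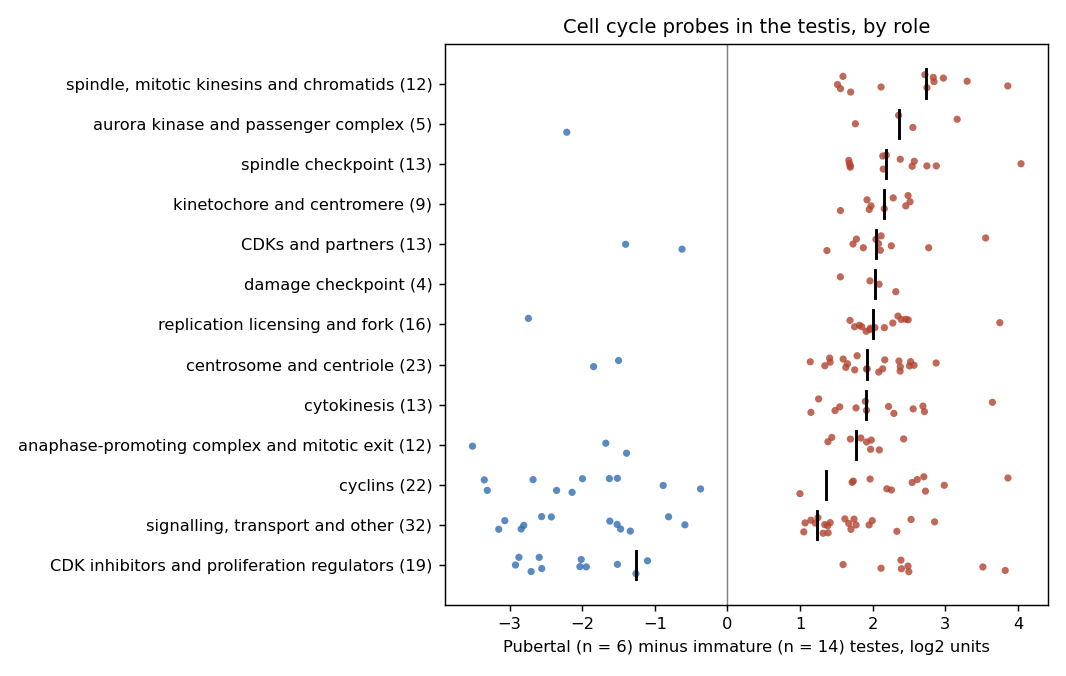
Log2-ER of each of the 193 cell cycle genes, pubertal minus immature testes, in rows by role, with 1 point per probe (red higher, blue lower in pubertal testes) and a black bar at the median of each role. Kinetochore, spindle checkpoint, cytokinesis, damage checkpoint and spindle genes all lie above 0, while cyclins and the inhibitor group are split.

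Cyclins, the regulatory partners of CDKs, were split, with 12 of 22 probes higher and 10 lower in pubertal testes. The highest log2-ER was that of cyclin D3 (LOC106583090), a D-type cyclin that acts on the way into DNA replication. Its level was 3.55, 4.08, 4.96, 5.05, 5.31 and 4.13 in the pubertal fish 184, 190, 245, 202, 211 and 213, against a lowest, median and highest level of 0.22, 0.68 and 1.18 in immature fish, a log2-ER of 3.86. Every pubertal fish thus lay far above every immature one. The other D-type cyclins, looked at after the values were seen, lay on the other side, with log2-ER of -2.0 for cyclin D1 (ccnd1) and of -2.68, -2.35 and -0.89 for 3 probes of cyclin D2 (LOC106573197, LOC106561356 and ccnd2). The mitotic B-type cyclins were mostly higher, cyclin B1 (ccnb1) by 2.98 and cyclin B2 (ccnb2) by 2.61. The lowest log2-ER among cyclins was that of a probe the study names cyclin B2 (cntd2) whose reference symbol is ccnp. It stood at 0.63, -1.42, -1.94, -1.13, -0.63 and -1.72 in the pubertal fish, against 0.61, 2.36 and 2.88 (lowest, median, highest) in the immature fish, a log2-ER of -3.35, and only fish 184 reached into the immature range, just above its lower end.

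Among CDKs and their partners, 11 of 13 probes were higher. CKS1 (LOC106613791), a small subunit that docks CDKs to their substrates, stood at 1.72, 2.05, 3.36, 3.77, 3.81 and 2.44 in the pubertal fish 184, 190, 245, 202, 211 and 213 and at -1.12, -0.77 and 0.66 (lowest, median, highest) in the immature fish, a log2-ER of 3.55 with no overlap. CDK2 (cdk2), which drives replication, had a log2-ER of 2.11. The lower probes were CDK18 (LOC106565629), with a log2-ER of -1.40 and overlapping groups, and CDK6 (LOC106583286), a partner of D-type cyclins, with -0.63, which is under the study's limit with the scaling used here.

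CDK inhibitors and other regulators of proliferation were the only role with more probes lower (11) than higher (8), with a median log2-ER of -1.26. The highest log2-ER was that of CDK4 inhibitor D (cdn2d), which blocks the kinases bound by D-type cyclins, at -1.42, 0.44, 2.85, 3.06, 3.17 and 1.17 in the pubertal fish 184, 190, 245, 202, 211 and 213, against -3.21, -2.23 and -1.88 (lowest, median, highest) in immature fish, a log2-ER of 3.82. The pubertal fish were above all immature ones but far apart from each other, with fish 184 lowest. The protein Tob1 (LOC106609569), a member of the anti-proliferative Tob and BTG family, had the lowest log2-ER, at -1.24, -1.29, -2.19, -2.82, -2.55 and -2.37 in the pubertal fish and at -0.57, 1.0 and 1.69 in the immature fish, a log2-ER of -2.92 with no overlap. A second Tob1 probe (LOC106576460) and 2 of the related ERBB2 transducer 1a (LOC106592182 and LOC106601729) were also lower, by -2.87, -2.01 and -1.26. These and the following were chosen after their values were seen. CDK inhibitor 1C (LOC106560698), a brake on the cell cycle known from mammals, had log2-ER of -2.56 and -1.10 on its probes, and the reprimo A-like gene (LOC106567336), whose mammalian relative takes part in arrest before mitosis, had -2.70. CDK inhibitor 3 (cdkn3), a phosphatase that acts on CDKs, had 3.52 and 4 probes of proliferation-associated protein 2G4 had 1.59 to 2.5.

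Genes of replication were higher on 15 of 16 probes, with a median log2-ER of 2.0. Cell division cycle associated 7a (LOC106586236), whose mammalian relative is bound up with chromatin remodelling and DNA methylation, reached 6.52, 6.96, 6.82, 6.92, 7.01 and 6.76 in the pubertal fish 184, 190, 245, 202, 211 and 213, against 2.57, 3.05 and 4.08 (lowest, median, highest) in the immature fish, a log2-ER of 3.75. The pubertal fish lay within 1 narrow band well above the immature ones. The one lower probe was the relative named cell division cycle-associated protein 7-like (LOC106566175), at -2.63, -4.32, -3.59, -2.96, -3.88 and -3.48 in the pubertal fish and at -1.23, -0.79 and -0.19 in the immature fish, a log2-ER of -2.74 with no overlap. The origin licensing factors cdc6 (1.69 and 2.16 on its probes) and Cdt1-like (1.75 and 2.03), the replication clamp PCNA (1.85 and 1.96) and the helicase factor CDC45 (2.49) were chosen after their values were seen and lay close together. All 4 damage checkpoint genes were higher without overlap, led by claspin (LOC106588468), which relays stalled forks to the checkpoint kinase, with 2.25 to 3.56 in pubertal and 0.05 to 1.27 in immature fish and a log2-ER of 2.32.

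The mitotic machinery was higher almost throughout. All 13 spindle checkpoint probes were higher, with a median log2-ER of 2.18 and no overlap for 6 of them. The highest log2-ER of all 193 genes was that of nucleoprotein TPR (LOC106560285), a nuclear pore protein to which checkpoint proteins bind. It stood at 4.64, 4.37, 4.93, 4.57, 5.22 and 4.71 in the pubertal fish 184, 190, 245, 202, 211 and 213, against -0.60, 0.68 and 1.83 (lowest, median, highest) in the immature fish, a log2-ER of 4.04. Every pubertal fish lay well above every immature one. All 9 kinetochore probes were higher without overlap (median 2.16), led by ska3, part of a complex that holds kinetochores to microtubules, with 2.96 to 3.60 in pubertal and 0.19 to 1.84 in immature fish and a log2-ER of 2.51. The 4 probes named MAD1, a spindle checkpoint protein, may share targets and are not independent.

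Spindle and mitotic kinesin genes had the largest median of any role, 2.73, and all 12 were higher, 11 of them without overlap. The kinesin KIF11 (LOC106607864), the motor that pushes spindle poles apart, stood at 3.95, 4.25, 4.19, 4.96, 4.97 and 4.28 in the pubertal fish 184, 190, 245, 202, 211 and 213 and at 0.17, 0.42 and 2.26 (lowest, median, highest) in the immature fish, a log2-ER of 3.86. Condensin subunit 3 (cnd3), which compacts chromosomes, and the spindle assembly factor tpx2 had 3.30 and 2.97 and were picked after their values were seen. Of the cytokinesis genes, 13 of 13 were higher, led by kinesin 20Ba (LOC106589940), with 0.21 to 1.71 in pubertal and -3.49 to -1.80 in immature fish and a log2-ER of 3.65.

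Of 5 probes that the study's names place with aurora kinase B and its passenger complex, which correct faulty spindle attachments, 4 were higher. Aurora kinase B (LOC106561604) stood at 2.25, 2.99, 2.88, 2.91, 3.07 and 3.17 in the pubertal fish 184, 190, 245, 202, 211 and 213, against -0.99, -0.38 and 1.12 (lowest, median, highest) in immature fish, a log2-ER of 3.16. The borealin-2-like gene (LOC106587175), a relative of a subunit of that complex, had the opposite sign, at 1.63, 0.91, -1.53, -1.59, -0.42 and 0.07 in the pubertal fish and at 1.62, 2.07 and 2.60 in the immature fish, a log2-ER of -2.21, and fish 184 alone touched the immature range. For the anaphase-promoting complex and mitotic exit, 9 of 12 probes were higher and 3 lower, none with overlapping groups. Its activator cdc20 stood at 4.98, 5.74, 6.0, 6.01, 5.88 and 5.61 in the pubertal fish and at 2.77, 3.24 and 4.47 in the immature fish. Kelch-like protein 13 (klh13), an adaptor of a ubiquitin ligase that moves aurora B in human cells, had the lowest log2-ER of all 193 genes with the scaling used here, at -4.57, -4.27, -3.62, -3.60, -4.99 and -2.22 in the pubertal fish and at -1.29, -0.33 and 0.81 in the immature fish, a log2-ER of -3.51. With normexp background correction its log2-ER was -1.71. The other lower probes were the phosphatases cdc14b (-1.39) and a cdc14-like gene (LOC106585187, -1.67), which undo CDK phosphorylation at mitotic exit in yeast.

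Centrosome and centriole genes were higher on 21 of 23 probes, with a median of 1.91. The centriole cartwheel protein sass6 had the highest log2-ER (2.87), with levels of 1.72 to 3.06 in pubertal and -1.12 to 0.94 in immature fish. Tuftelin (LOC106575420) had the lowest (-1.84), with levels of -0.46 to 1.2 in pubertal and 1.32 to 2.61 in immature fish, which did not overlap. Signalling, transport and other genes were the most mixed after cyclins and inhibitors, with 20 of 32 probes higher and 12 lower. At their ends stood a probe the study names as derived from a piggyBac transposable element, with the reference symbol prr11 (2.16 to 2.70 in pubertal and -1.09 to 0.15 in immature fish, log2-ER 2.85), and Dock5 (LOC106611811), an activator of the small GTPase Rac, with -3.68 to -1.78 in pubertal and -0.18 to 0.99 in immature fish and a log2-ER of -3.15. Among the genes just inside the study's limit were cyclin E1 (LOC106562012) with 1.0, which had 0.52 with the authors' processed values, and ccnd2 with -0.89. Just outside it, with the scaling used here, were CDK6 with -0.63, rbbp9, a retinoblastoma-binding protein, with -0.59 and the splicing-related cyclin L1 (LOC106565646) with -0.37, which had -1.09 after quantile normalization and -0.93 with the authors' processed values.

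Salmonids carry many genes as duplicates, but probes that share a name in the study's list need not be duplicates, which was not checked. In the list, 4 names covered probes that moved in opposite directions in the testis. Cyclin B2 was given above, and its lower probe has the reference symbol of another gene, ccnp. Of 2 probes named cyclin-B1-like, LOC106562137 stood at 1.29, 0.54, -1.25, -1.58, -0.61 and -0.47 in the pubertal fish 184, 190, 245, 202, 211 and 213, against 0.72, 1.28 and 1.63 (lowest, median, highest) in the immature fish, a log2-ER of -1.63. LOC106566708 stood at 3.81, 4.52, 4.33, 4.53, 4.40 and 4.35 in the pubertal fish and at 1.41, 2.04 and 3.43 in the immature fish, a log2-ER of 2.26. The first overlapped between groups through fish 184 and the second did not overlap. Retinoblastoma-like protein 2, a pocket protein that holds back genes of cell cycle entry, had a log2-ER of -1.94 at LOC106562395 (-3.93 to -2.32 in pubertal and -1.49 to -0.45 in immature fish) and of 2.39 at LOC106587590, where the pubertal fish stood at 4.25, 5.48, 6.93, 7.28, 6.80 and 5.58 and the immature fish between 2.80 and 4.56. The centrosomal linker protein CEP250 had a log2-ER of -1.50 at LOC106570025, and of 2.5 and 2.52 at LOC106575451 and LOC106575487, which may share targets.

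**Figure D2:**
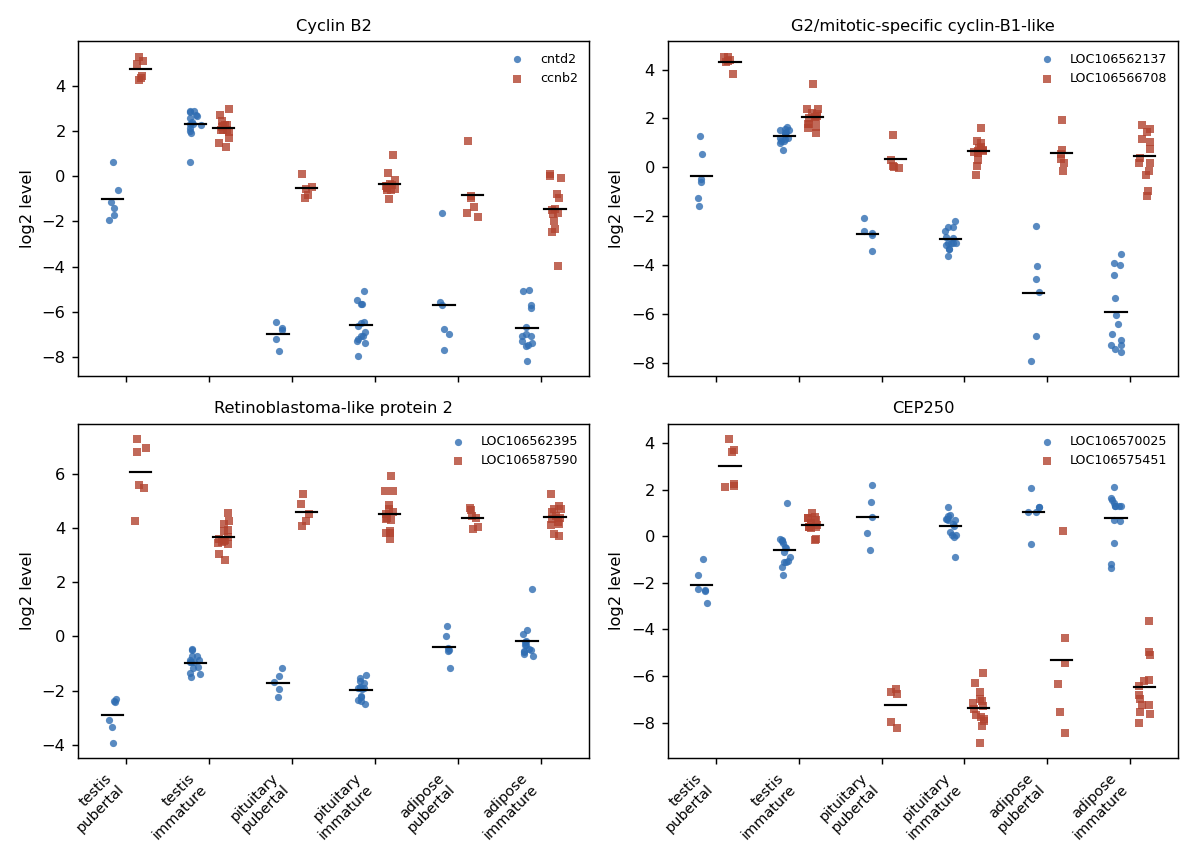
Level (log2 relative to the 75th percentile of the array) of 4 pairs of probes that share a name, for each fish in pubertal and immature testis, pituitary and adipose, with bars at the group means and without pituitary 184. In each pair the probes move in opposite directions between pubertal and immature testes, and 1 cyclin B2 probe (cntd2) and 1 CEP250 probe (LOC106575451) are near the bottom of the scale in pituitary and adipose.

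The pubertal fish were not alike. Relative to the mean of the immature testes, the median over the 151 puberty-high genes was 1.47 in fish 184, 1.81 in fish 190, 2.34 in fish 245 and 2.44 in fish 211 (all stage IV), 2.06 in the stage III fish 213 and 2.30 in the stage V fish 202. Over the 42 puberty-low genes the same fish had medians of -1.12, -1.48, -2.56, -2.46, -1.95 and -2.50. Fish 184 was thus nearest to the immature testes on both sides. Its array was the only pubertal testis array in scan batch 4, and the other 5 were in batch 1. A scan batch holds the arrays scanned on the same day. Fish 184 and scan batch thus cannot be told apart among the pubertal testes. In the study's histology type B spermatogonia dominated in fish 184, and its germ cell compartments were of medium size. Spermatocytes dominated in the other pubertal fish, whose compartments were large. The part of this in the result was not tested. The single fish of stages III and V lay between the stage IV fish in the first of these medians, and in the second as well. Of the puberty-high genes, 113 lay within the stage IV range in the stage III fish and 101 in the stage V fish. Genes that differed widely between these 2 fish, a description of 1 fish against 1, were the kinase MAP3K12 (3.13 higher in stage V), the centrosome kinase Nek2 (LOC106571199, 2.42) and ccdc78 (2.41), which takes part in making many centrioles. Both puberty-high CEP250 probes were higher in stage V by 1.94 and 2.22. On the lower side were a CDK2-associated protein 1-like gene (LOC106585276, -1.70) and borealin-2-like (-1.65). For these genes stage IV itself spanned a wide range, with Nek2 at -1.52 to 1.59. That range includes fish 245 and 211, which the histology places later, and no order of stages was read.

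The genes of fish 184 stood at unlike shares of the distance from the immature mean to the mean of the other 5 pubertal testes. Over the puberty-high genes the median share was 66.4% (interquartile range 50.05 to 84.5%), with 38 genes under 50% and 47 over 80%. These are levels on a single array of a fish sampled once, and array noise and scan batch were not separated from them. The role medians were highest for spindle and kinesin genes (83.85%), kinetochore (80.1%) and cytokinesis (79.7%), and lowest for centrosome (54.0%) and spindle checkpoint genes (52.2%). Single genes at the low end were a kinesin 5Aa probe (LOC106578560, -18.6%), the CDK activator spdya (13.6%), which acts in meiosis in mice, and cdn2d (19.5%). At the high end were protein regulator of cytokinesis 1 (LOC106584748, 122.4%), the replication protein rpa3 (119.6%) and the checkpoint clamp rad9a (118.3%). Over the puberty-low genes the median was 51.25%, with klh13 at 124.5% and cyclin-B1-like LOC106562137 at -0.7%. The genes in this account of fish 184 and 160 were chosen after their values were seen.

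Among the immature fish, fish 160 of group B stood out in the same direction. Its puberty-high genes had a median of 0.81 relative to the mean of the other immature testes, and 118 of 151 lay above that mean. The other 13 immature fish, each likewise set against the rest, had medians between -0.32 and 0.12. Its puberty-low genes had a median of -0.14. Fish 160 was the highest immature fish for 93 of the 151 puberty-high genes. The same count was not made over all probes, so nothing particular to these genes is read from it. By role, its share of the distance to the pubertal mean was largest for cyclins (median 55.7%) and replication (45.3%) and smallest for damage checkpoint (6.7%) and centrosome (-8.4%). The testis array of fish 160 also stood apart in other ways. It had the lowest share of spots well above background (66.5%) and the lowest median correlation to other testis arrays (0.946) of the immature fish. Its amh stood at 3.77, against at least 4.79 in the other immature and 0.39 to 3.4 in pubertal testes. Its fabp4, listed as an adipose marker, stood at 6.21, against at most 4.25 and 6.74 to 7.69. Both values thus lay between these groups. The other adipose markers measured, cidec (1.82) and plin1 (2.0), were instead higher than in any other testis. The study reports high serum sex steroids in this fish and tubules with high cell division. Its histology lists the same tubules and cell division for the immature fish 203, whose puberty-high genes had a median of -0.26. From hormones and pituitary expression the study proposes that fish 160 may be maturing, with testis histology closer to immature males. The part of these features in the result was not tested. Cyclin E1, which starts replication, was at 104.3% and a CKS1 probe (cks1) at 98.6%, whereas spdya was at -42.8%.

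**Figure D3:**
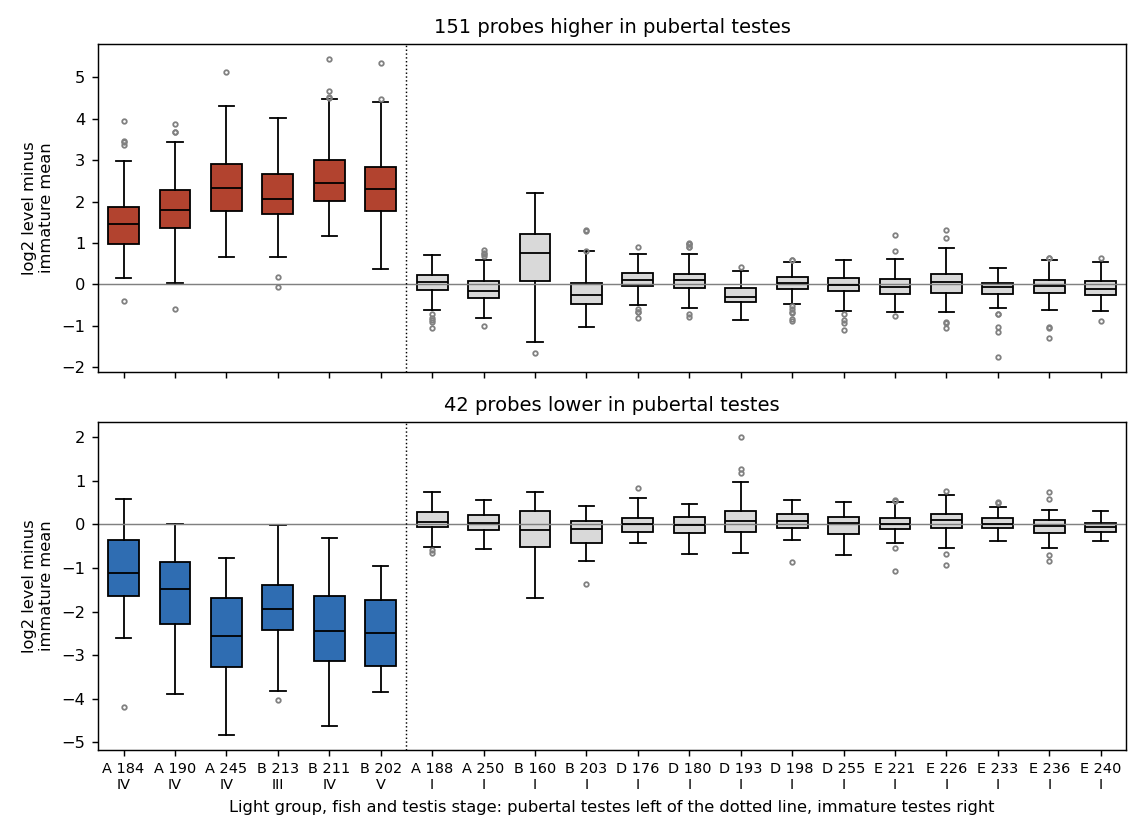
Level of each gene minus its mean over immature testes, as a box (median and quartiles) for each of the 20 testes, with pubertal fish left of the dotted line, the 151 puberty-high genes in the upper panel and the 42 puberty-low genes in the lower one. Fish 184 has the smallest shift among pubertal fish in both panels (medians 1.47 and -1.12). Fish 160 is the immature fish whose upper box stands above the others. Its median of 0.81 in the text is relative to the other immature testes, not to the mean drawn here.

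In immature fish more of these genes were higher than lower in testis compared with the other tissues. The immature testis arrays are 1 side of the comparison that chose the list, so the values that follow are a description and not independent of the choice. Between testis and pituitary, 105 of 193 genes were called higher in testis than in pituitary and 23 lower (limma, adjusted p under 0.05 and a log2 difference beyond 0.8), where 50.5% of all probes were called, 23% higher and 27.4% lower. The median difference was 0.95 over the cell cycle genes and -0.15 over all probes. Against adipose, 128 were called higher in testis and 24 lower, where 56.5% of all probes were called, 25.7% higher and 30.9% lower, with a median of 1.64 against -0.14 over all probes. Both comparisons share the testis arrays. The groups did not overlap for 76 genes higher and 11 lower in testis than in pituitary (14.1% and 13.5% of all probes), and for 90 higher and 6 lower in testis than in adipose (12.6% and 6.86%). Normexp lowered the medians to 0.53 over pituitary and 0.54 over adipose (all probes -0.10 and -0.42), and the authors' processed values raised them to 1.38 and 2.90 (all probes 0.24 and 1.2). Puberty-high genes had a median of 1.05 over pituitary and 1.81 over adipose (84 and 111 called higher of 151, 15 and 10 lower), and puberty-low genes 0.80 and -0.21 (21 and 17 called higher of 42, 8 and 14 lower). The difference between these sets was not tested. Without the arrays that did not match their fish, 130 genes were called against pituitary (without fish 250) and 154 against adipose, compared with 128 and 152. Of all probes, 50.7% and 57.2% were called in these 2 runs.

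By role, replication genes led in both comparisons. Of 16 probes, 15 were called higher in testis than in pituitary and none lower (median 2.22), and all 16 were called higher than in adipose without overlap (median 3.18). Among the other roles, kinetochore genes had 8 and 9 of 9 probes called higher than in pituitary and adipose (medians 1.72 and 2.06), aurora kinase B and its complex 4 and 5 of 5 (2.0 and 2.5), damage checkpoint genes 4 and 3 of 4 (1.57 and 2.69), the spindle checkpoint 11 and 11 of 13 (1.12 and 1.81) and cyclins 15 and 14 of 22 (1.33 and 1.68). The inhibitor group was even, with 5 called higher and 5 lower against pituitary and 7 and 4 against adipose, and signalling and other genes leaned to lower levels in testis, with 5 higher and 10 lower against pituitary and 9 and 12 against adipose.

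The genes with the largest differences included puberty-high and puberty-low ones. The cyclin B2 probe cntd2 had a measured log2 difference of 8.91 to pituitary, which is uncertain because only 1 of 14 pituitary arrays was above background. In adipose it was above background on no array, so that its level in testis was at least 188-fold higher, from the lowest signal well above background on each adipose array. CEP250 LOC106575451 was above background on none of the pituitary arrays, at least 88.7-fold higher in testis, and was higher than in adipose by 6.95. Cyclin-B1-like LOC106562137 was higher by 4.23 over pituitary and 7.22 over adipose. Both of these cyclin probes were puberty-low. The checkpoint clamp gene rad9b was at least 25.4-fold and the reprimo A-like gene at least 23.7-fold higher in testis than in pituitary, where neither was above background, and their differences over adipose were 4.98 and 5.17. Cell division cycle-associated protein 7-like (LOC106566175) and the licensing factor cdc6 (LOC106564750) were higher than in pituitary by 5.43 and 3.90. Kinesin heavy chain 5A (LOC106571955), a motor of axonal transport, had a log2 difference of -3.64 to pituitary and of 5.95 to adipose. Genes lower in testis than in pituitary were led by it, TPR (-3.03) and ERBB2 transducer 1a (LOC106601729, -2.94), and those lower than in adipose by Dock5 (-2.25), cell cycle control protein 50C (LOC106586702, -2.19) and, after a Dock4b probe, klh13 (-2.08). Thus TPR, with the highest log2-ER in the testis at puberty, was lower in immature testis than in pituitary.

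In the pituitary no cell cycle gene was called between pubertal and immature fish. Of 186 genes measured in 5 pubertal and 14 immature pituitaries, the log2-ER was positive for 69 and negative for 117, with a median of -0.09, against -0.01 over all probes, and a range of -1.12 to 0.51. By limma 0 were called, beside 0.304% of all probes, and the smallest adjusted p was 0.563. By limma too, 6 genes had an unadjusted p under 0.05, beside 1899 of all 34826 probes. By the methods' t-test without adjustment, 9 had a p under 0.05 and 0 of these were also past the limit of 0.8. Of all probes, 1.52% passed both by that t-test. Puberty-high genes had a median of -0.11 (45 higher, 101 lower) and puberty-low genes 0.05 (24 higher, 16 lower). The 6 genes were claspin (-0.30), Nek2 LOC106571199 (-0.62), Tob1 LOC106609569 (-0.41), ccdc78 (-0.35), cyclin E1 (0.34) and CKS1 LOC106584418 (0.51), named after their values were seen. Over the puberty-high genes, the median of an array lay between -1.17 and -0.81 (median -1.16) in pubertal and between -1.20 and -0.46 (median -0.99) in immature pituitaries, so the groups overlapped. The array of fish 184, left out here, was lower, at -1.71, and with it the count was 50 higher and 136 lower with a median of -0.15. Without fish 250, whose array did not match, it was 64 higher and 122 lower. The highest immature median, -0.46, was that of fish 160. The study describes the pituitary profiles of fish 160 and 250 as similar to those of maturing fish, and both were kept as immature here. Without both, 70 genes were higher and 116 lower, and limma called 0, beside 0.872% of all probes.

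In adipose of groups A and B, no gene was called between 6 pubertal and 4 immature fish either, with the light group as a block. Of 183 genes measured, the log2-ER was positive for 88 and negative for 95, with a median of -0.01, against 0.10 over all probes. By limma 0 were called, as for all probes (0%), with a smallest adjusted p of 0.649. By limma too, 1 gene had an unadjusted p under 0.05, beside 2503 of all 32892 probes, the cell division cycle-associated protein 7-like gene (-1.52). By the methods' t-test without adjustment, 3 genes had a p under 0.05 and 1 of these was also past the limit. Of all probes, 3.73% passed both by that t-test. The split between higher and lower genes depended on the scaling, with 43 higher and 140 lower after median scaling, where the median over all probes was -0.18, 117 and 66 after normexp background correction and 62 and 121 with the authors' processed values. Leaving out 1 array at a time gave medians between -0.25 (without fish 250) and 0.15 (without fish 188). Without the library labelled adipose 202, which holds some testis markers, the median was -0.17, with 62 higher and 120 lower. Without the 3 arrays of these groups that did not match their fish (4 against 3) the median was -0.10. There 77 were higher and 106 lower. Among these 3, the libraries labelled 184 and 211 are counted as pubertal but matched immature fish.

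**Figure D4:**
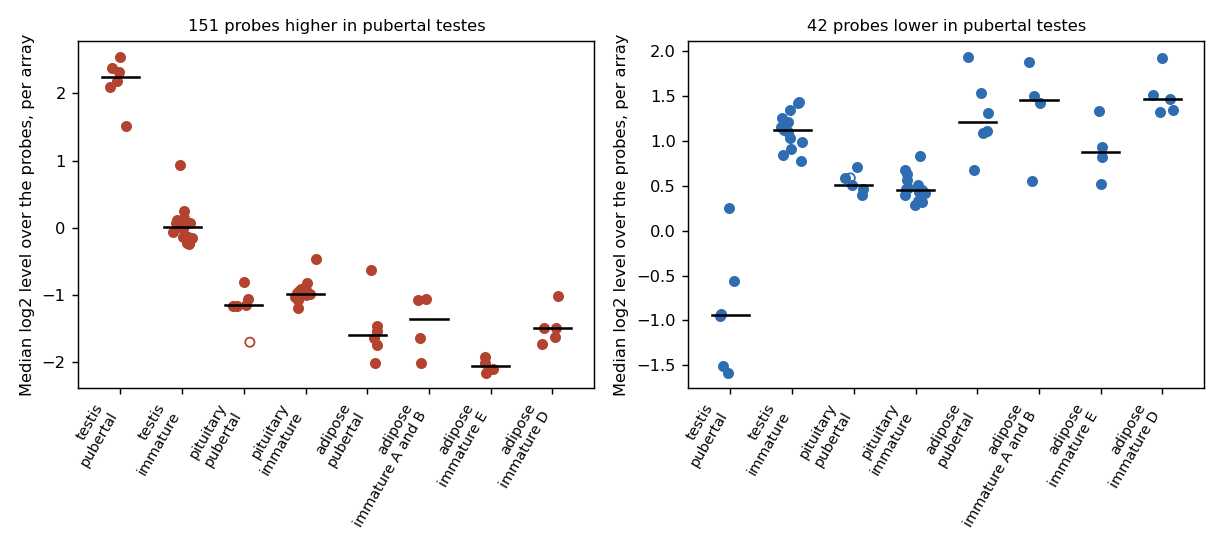
Median level over the 151 puberty-high genes (left panel) and the 42 puberty-low genes (right panel) on each of the 59 arrays, by tissue and group, with a bar at the group median and the left-out pituitary array of fish 184 as a hollow point. In the left panel, pubertal testes lie above immature testes, pubertal and immature pituitaries overlap, and adipose of group E (-2.16 to -1.93) lies below that of group D (-1.73 to -1.03).

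Within immature adipose, no gene was called between group E, with the low-fat diet, and group D, both under decreasing light, but more genes had a lower than a higher mean in E. The labels of the adipose samples contrast these groups by immune activity, high in D and low in E. Of 174 genes measured in 4 fish of E and 5 of D, 32 were higher and 142 lower in E, with a median difference of -0.50, against -0.11 over all 30501 probes. With normexp background correction the median was -0.15, against 0.10 over all probes. By limma 0 genes were called, as for all probes (0%), with a smallest adjusted p of 0.126, while 79 had an unadjusted p under 0.05 (6128 of all probes). In 39 genes every fish of E lay below every fish of D, beside 4.94% of all probes, and in 3 every fish of E lay above, beside 2.15%. Of the 39, 36 were puberty-high genes, whose median difference was -0.63 (18 higher, 119 lower), and puberty-low genes had a median of -0.23 (14 higher, 23 lower).

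Medians differed between roles, which was not tested. They were -1.47 for aurora kinase B and its complex, -1.11 for cytokinesis, -1.03 for spindle and kinesin genes (12 of 12 lower), -1.02 for the spindle checkpoint, -0.87 for replication (15 of 16 lower), -0.70 for CDKs and partners, -0.62 for kinetochore genes (9 of 9 lower), -0.59 for cyclins, -0.48 for the anaphase-promoting complex (12 of 12 lower), -0.45 for damage checkpoint genes, -0.17 for signalling and other genes, -0.16 for centrosome genes and 0.12 for the inhibitor group (9 higher, 8 lower). The genes that follow were chosen after their values were seen. The checkpoint protein MAD2 (md2l1), which restrains the anaphase-promoting complex, stood at 0.62, 0.61, 1.02 and 0.09 in fish 211, 233, 236 and 240 of E and at 1.73, 2.08, 1.79, 1.65 and 1.47 in fish 176, 180, 193, 198 and 255 of D, a difference of -1.16. KIF11 (LOC106607864) stood at -3.48, -2.97, -2.76 and -2.05 in E and at -1.15, -0.77, -0.93, -1.41 and -1.84 in D (-1.60, adjusted p = 0.13, limma), and the cytokinesis kinesin KIF20A at -1.22, -1.15, -1.17 and -1.84 in E and at 0.19, 0.83, 0.32, -0.01 and -0.80 in D (-1.45). In each of these genes the fish of E lay below all fish of D, by a small gap for KIF11, and 2 of the 4 fish of E (211 and 240) are libraries that did not match their labels. A cyclin probe the study names cyclin A1, with the reference symbol ccna2, stood at -2.69, -1.15, -1.55 and -2.38 in E and at -0.28, 0.17, -0.46, -0.60 and -1.08 in D (-1.49). Some puberty-low genes were lower in E too, such as Dock5 (-1.47) and klh13 (-1.23). The CDC42-binding kinase CDC42BPB (LOC106567543), which acts on the actin cytoskeleton, was an exception, at 0.88, 1.66, 0.86 and 1.42 in E and at -0.92, -0.55, -0.87, -0.66 and -0.19 in D (1.84, adjusted p = 0.126, limma).

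**Figure D5:**
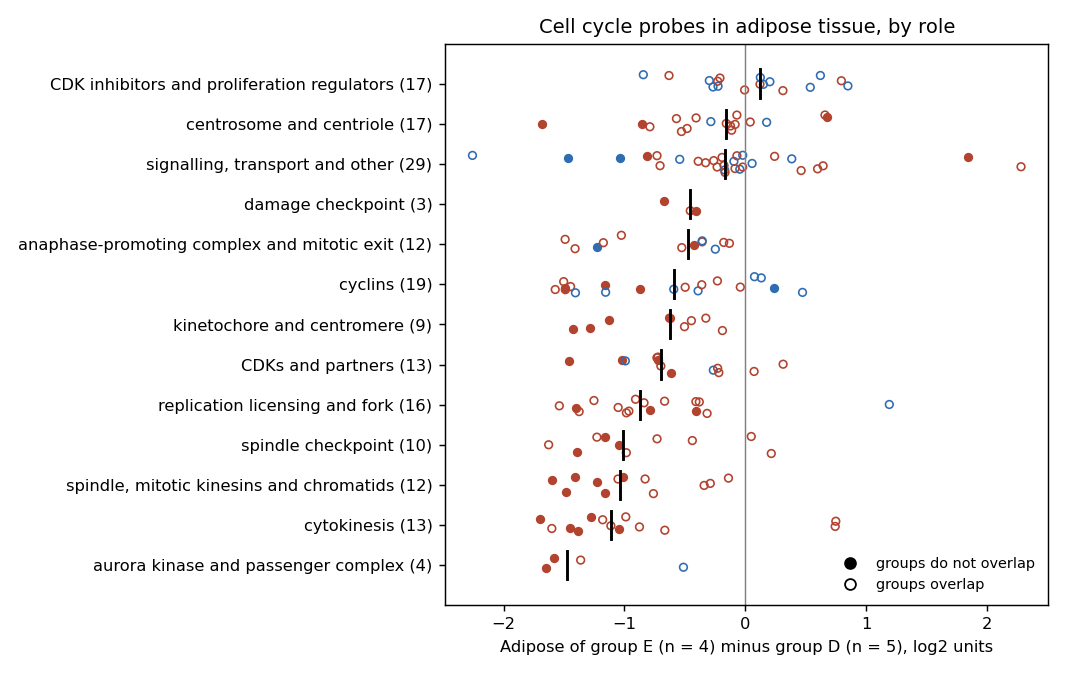
Difference in adipose level, group E minus group D (log2), for each gene measured, in rows by role, with filled points where the 4 fish of E and the 5 of D do not overlap and red or blue for genes higher or lower in pubertal testes. Spindle and kinesin, kinetochore and anaphase-promoting complex genes all lie below 0, and the inhibitor group is spread around 0.

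The arrays of group E were dimmer than those of D, with a 75th percentile of 39.2, 99.0, 172.8 and 112.4 in E and of 307.0, 189.7, 224.9, 60.7 and 181.2 in D and 51.1 to 69.8% and 55.1 to 77.6% of spots well above background. Blood and leukocyte markers were measured by 4 probes of 3 genes of 8 listed, with a summed linear level of 144.6 to 587.6 (median 314) in E and of 225.9 to 549.3 (median 354) in D. That sum is mostly the haemoglobin gene hba (log2 level 7.12 to 9.18 in E and 7.82 to 9.06 in D), so it says little of leukocytes. The leukocyte gene ptprc stood at 2.24 to 3.61 in E and 3.40 to 4.60 in D (4 arrays of D). The T cell gene cd3e did not share that shift. On 1 probe it stood at -2.20 to -1.26 in E and -3.10 to -0.55 in D. On the other it stood at -5.46 to -3.78 and -6.11 to -5.21, well above background on 1 array of each group. The part of signal strength, of blood and of leukocytes in the result was not tested. Without the dimmest array of each group, 64 genes of 178 were lower without overlap (11.4% of all probes), and within scan batch 2 (2 fish of E, 4 of D) 70 of 178 were (13.1%). With normexp background correction there were 15 (1.15%), with 63 genes higher and 111 lower. Without the 2 arrays of E that did not match their fish, 37 genes were higher and 137 lower and 53 lower without overlap (9.91%). The library labelled 211 among them matched a pubertal fish. Calls depended on single arrays of E. Without fish 236, whose library holds some pituitary markers, 23 genes were called (4.67% of all probes), and without fish 211, 2 were (0.759%).

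In the immature testes themselves, no gene was called between diet or light groups. Between 5 fish of E and 5 of D, 75 genes were higher and 118 lower in E (median -0.04). By limma 0 were called, as for all probes (0%), with 7 at an unadjusted p under 0.05, beside 917 of all 34090 probes. The nuclear VCP-like gene (LOC106569430), an ATPase of ribosome assembly, was the one gene without overlap, at 0.80, 0.99, -0.19, 0.54 and 1.43 in E and at 2.19, 1.54, 1.79, 1.97 and 1.72 in D (-1.13), beside 0.246% of all probes. Between 4 immature fish of groups A and B and 10 of D and E, 129 genes were higher and 64 lower in A and B, with a median of 0.08, against -0.04 over all probes. Here too limma called 0 (0% of all probes), with 8 at an unadjusted p under 0.05, beside 1737 of all 35576 probes. The direction rested on fish 160, since without it 68 were higher and 125 lower and the median was -0.06, against 0.05 over all probes. Without fish 160 and 250 there were 75 and 118.

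Of 136 other cell cycle symbols listed from general knowledge, 52 had a probe outside the set. In the testis, 51 of these were measured, 46 higher and 5 lower in pubertal fish, and 39 were called higher and 1 lower by limma, beside 31.9% and 27.2% of all probes, with a median log2-ER of 1.39. The highest log2-ER were those of kif14, a kinesin of cytokinesis (3.28), pttg1, the securin that holds back separase (3.02), and espl1, separase itself (2.97). The one called lower was a second CDK6 gene (cdk6, -2.19), and the kinetochore gene ndc80 (-0.24) and the replication gene mcm10 (-0.31) missed the limits. In the pituitary 18 were higher and 31 lower in pubertal fish and in adipose 21 and 29, with 0 called by limma in either. Adipose of E against D had 11 higher and 36 lower (median -0.41, 0 called by limma, 19 at an unadjusted p under 0.05, beside 6128 of all 30501 probes). In immature fish 29 of 49 were called higher and 3 lower in testis than in pituitary (median 0.99), beside 23% and 27.4% of all probes. Against adipose 31 were called higher and 3 lower in testis (median 1.29), beside 25.7% and 30.9% of all probes.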

How the data were processed

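RNA (RNeasy Mini kit per the labels) of testis, pituitary and adipose was labelled with Cy3 and hybridised to Agilent arrays, 1 per fish and tissue, not pooled. The deposited files hold spot intensity from Agilent Feature Extraction as the scanner software gave it, already background-corrected. The authors' processed values, whose scaling is not given in the sources used here, served as an alternative only.

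For 42386 probes (42438 of 43855 spots, 52 in duplicate), log2 intensity minus the 75th percentile of the array was computed, outlier spots were left out and duplicates averaged. No spot was saturated. Groups were compared with limma 3.58.1 (R 4.3.3, lmFit and eBayes) and Benjamini-Hochberg adjustment over the probes kept, which stood well above background on a number of arrays no smaller than the smaller group. A gene was called where the adjusted p was under 0.05 and the log2 difference beyond 0.8 (1.741-fold), the study's limit. Genes were matched to RefSeq (assembly Ssal_v3.1) by accession or locus for 169 of 193, and other names are the study's. Some of the study's names differ from the reference symbol, among them aurora kinase B, CDK2 and cyclin B1 on some probes. The study's names were kept there, so these identities are not settled. Sequences were not analysed here.

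The genes and lists were chosen with earlier results of these data known. Named genes are, in each role, those with the highest and lowest log2-ER in the testis, the 10 largest calls of other comparisons, genes of one name with opposite directions and genes just inside the limit. The testis labelled fish 226 in its title and 236 in another label was used as 226. Precision is limited by the number of fish. The scripts were tested on simulated data. Alternatives were other scalings and filters, normexp (offset 50), a limit of 1, the methods' t-test, scan batch (4) and slide (16) as blocks or within batches, fish as a block and leaving out each array.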

Additional observations from a re-analysis of the deposited data

Results flagged for a closer look

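Single samples stood far from the others of their group in 3 of 53 checks, each of 1 gene or 1 median in a group of 4 to 10 samples. Chance flags about 1 in 20 independent checks. Many of these checks used the same pubertal testes and are not independent. Aurora kinase B (LOC106561604) in pubertal testes was lowest in fish 184, at 2.247, with the next fish at 2.881. Cyclin-B1-like LOC106566708 in pubertal testes was also lowest in fish 184, at 3.809, with the next at 4.333. The testis array of fish 184 was the only pubertal one in its scan batch. Over the puberty-high genes, the pituitary of the pubertal fish 190 had the highest median of its group, at -0.8135, with the next at -1.074.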

How the results depend on the processing

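Of the values that answer a comparison, 184 stayed within 1.5 times under the alternatives and 10 moved. The 184 include counts of the testis comparison that chose the genes and comparisons with 0 calls under both settings. They also include counts that a setting could not change, so the 184 say little of how robust the results are. Cell cycle genes lower in adipose of E than of D without overlap were 39, but 15 with normexp, 70 within scan batch 2 and 64 without the dimmest arrays, and 1 gene was called with the scan batch as a block. Leaving out 1 array at a time gave 0 to 23 calls there. The methods' t-test put 1 gene past the limit in adipose maturity, beside 3.73% of all probes. Immature testis against pituitary had 23 called lower and 15 with the authors' processed values (16.1% of all probes). Against adipose, 128 were called higher and 85 with normexp (11.1%), 24 lower and 0 with the authors' processed values (4.54%), and with a filter on every array 83 of 119 were called, 60 of them higher (17.7%). Leaving out arrays gave 124 to 128 calls against pituitary and 151 to 154 against adipose. Arrays of one fish number were paired by their labels, although pituitary 250 and some adipose arrays did not match. With fish number as a replicate block 128 genes were called against pituitary (130 without fish 250) and 152 against adipose, beside 50.6% (50.8%) and 56.1% of all probes. In the testis, ccnd2 reversed within scan batch 4 (the pubertal fish 184 alone against 3 immature fish), at 0.62. Normexp made several named log2-ER in the testis smaller in size, such as those of klh13 (-1.71), Tob1 LOC106609569 (-2.11), Dock5 (-2.09) and kinesin 20Ba (2.505). The causes were not tested. Dim adipose arrays and 4 to 6 fish a group limit what could be detected.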
